A study of Homo sapiens with 6 samples.

Results

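Glutathione synthesis and cystine uptake were examined through 10 genes, GCLC, GCLM, GSS, SLC7A11, GSR, GPX1, GPX4, GSTP1, MGST1 and GGCT, which were found by symbol among the 57133 symbols of the count table. They had been proposed with results of this same comparison in view. Their fold changes, intervals and calls are therefore only a description of these libraries, and no p-value of a member is printed. RNA came from T98G, an established human glioblastoma line, in which CBX8, a chromodomain subunit of Polycomb repressive complex 1, had been knocked out by CRISPR. The CBX8 KO group (3 libraries) carried the empty doxycycline-inducible lentiviral vector, and the WT CBX8 re-expression group (3 libraries) carried that vector with V5-tagged WT CBX8. Both groups carried the rtTA activator, were selected with puromycin and hygromycin, and received doxycycline at 1 μg/ml for 72 h. The genotype label of the re-expression samples reads wild type, whereas their titles and the methods of the study give CBX8 put back into KO cells, and the titles were used. Each group is 1 stable line infected and selected on its own, so an effect of CBX8 and a difference between the lines cannot be told apart. No source says whether the libraries of a group come from separate cultures, so n counts libraries and p-values measure only the spread between them, which may be technical.

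Glutathione, a tripeptide of glutamate, cysteine and glycine, is the most abundant small thiol of animal cells. Cysteine, which usually limits its synthesis, enters cultured cells mainly as cystine in exchange for glutamate. Glutamate-cysteine ligase joins glutamate to cysteine, glutathione synthetase adds glycine, peroxidases and transferases spend the product, and glutathione reductase restores it with NADPH. Several of these genes are textbook targets of the transcription factor NRF2 (gene NFE2L2), which binds the antioxidant response element (ARE) together with small MAF proteins, while KEAP1 marks NRF2 for degradation.

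Total counts lay between 7950190 and 8659796 per library, and all 10 genes passed the filter on low counts that left 14461 genes for testing. CBX8 itself lay between 10.6 and 12.4 CPM (counts per 1000000, scaled by TMM throughout) in the CBX8 KO libraries and between 3309 and 3588 CPM in the re-expression libraries, so the direction fits every label. Mitochondrial transcripts took 6.85% to 7.96% of counts in CBX8 KO and 5.96% to 6.99% upon re-expression, and their part in the results was not tested. Of the glial and mesenchymal glioma markers, VIM, CD44, FN1, TNC and EGFR had means of at least 63.4 CPM in each group. TNC, an extracellular matrix protein, rose from 63.4 to 167 CPM upon re-expression, and its part in the results was not tested. GFAP went from 1.82 to 2.92 CPM and OLIG2 from 1.78 to 3.22 CPM without being called, NES was below 0.4 CPM, and SOX2 and S100B had 0 counts, so glial markers were near absent. The summed level of the 5 epithelial markers was at most 0.714 CPM in any library, that of the 5 blood markers at most 1.9 and that of the 5 endothelial markers at most 2.82. The 5 neuron markers, led by SNAP25, summed to between 12.1 and 13.9 CPM in CBX8 KO and between 15.3 and 18.9 CPM upon re-expression, and their part in the results was not tested. In bulk RNA, fewer cells of a kind and less RNA per cell cannot be told apart.

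Upon WT CBX8 re-expression, both subunits of glutamate-cysteine ligase, the cystine carrier SLC7A11, glutathione reductase and MGST1 were lower, GPX1 was higher, and GSS, GPX4, GSTP1 and GGCT were not called. A gene is called where the false discovery rate of edgeR's quasi-likelihood test, adjusted over all genes tested by the Benjamini-Hochberg method, is under 0.05. Of the 10 members, 5 were called lower and 1 higher, where 6.63% of all genes tested were called lower, 6.23% higher and 12.9% either way. Among the 6120 genes expressed at least as highly on average as GGCT, the lowest member in CPM, the share called was 19.2%. With library size alone as the scaling, 592 genes were called lower and 1400 higher in place of 959 and 901. Nothing is read from these counts, because the members were proposed with this contrast known. The median log2 fold change of the 10 members was -0.23, against 0 for all genes tested, with -0.52 for the 4 genes of synthesis and uptake and -0.12 for the 6 of reduction, use and turnover. For 7 of the 10, the libraries of the groups did not overlap, as for 28.9% of all genes tested, 14.4% lower and 14.4% higher. Here and below, values after ± are SDs over the 3 libraries of a group unless named otherwise, and FDR is that adjusted p.

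**Figure D1:**
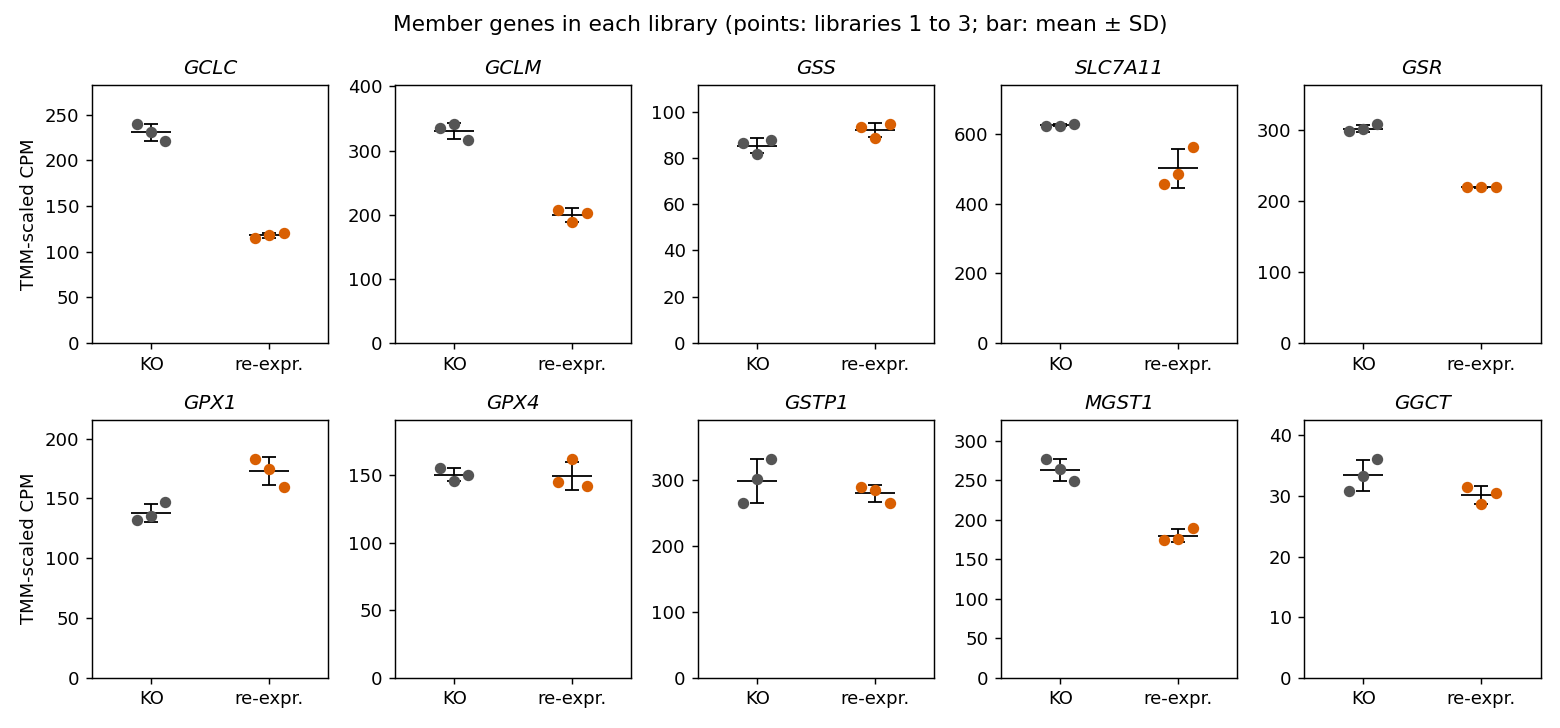
TMM-scaled CPM (y axis, from 0) of each member in the 3 CBX8 KO and 3 WT CBX8 re-expression libraries (x axis), with each point a library and the bar and whiskers the mean ± SD. GCLC, GCLM, SLC7A11, GSR and MGST1 lie lower in all 3 re-expression libraries, GPX1 and GSS lie higher, and GPX4, GSTP1 and GGCT overlap.

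The first enzyme of synthesis showed the largest difference among the members. GCLC (ENSG00000001084.13, chromosome 6 from 53497341 to 53616970, minus strand, hg38) encodes the catalytic subunit of glutamate-cysteine ligase, which carries out the rate-limiting step. Its level was 239.5, 231 and 221 CPM in CBX8 KO and 115, 118 and 120.4 CPM upon re-expression, in the order of replicates 1 to 3 as in every such list here. The highest re-expression library was far below the lowest KO library, and the mean went from 231 ± 9.27 to 118 ± 2.85 CPM, which is 51.1% of the KO level. The log2 fold change was -0.97 (SE 0.05), and under the 15 other ways of processing the value nearest to 0 was -0.91. Of the 3785 bases of its canonical transcript, 252 are also covered by exons of the antisense gene GCLC-AS1 on the opposite strand. The lncRNA gene ENSG00000231683 on the same strand shares 529 bases with other exons of GCLC and 0 with that transcript.

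GCLM (ENSG00000023909.10, chromosome 1 from 93885199 to 93909456, minus strand) encodes the modifier subunit, which raises the affinity of the ligase for glutamate and eases feedback inhibition by glutathione. Its libraries read 335, 341 and 316 CPM in CBX8 KO and 208, 188 and 203 CPM upon re-expression, with no overlap. The mean fell from 331 ± 12.7 to 199.7 ± 10.7 CPM, or -0.73 ± 0.05 (SE) as log2 fold change. No exon of another gene overlaps those of GCLM. Per kilobase of canonical transcript, the ratio of GCLM to GCLC was 1.08, 1.14 and 1.11 in the KO libraries and 1.40, 1.23 and 1.31 in the re-expression libraries. Every re-expression library lay above every KO library. The size of that ratio rests on the length used. With the merged exons of each gene it was 2.28 ± 0.061 in KO and 2.69 ± 0.18 upon re-expression, since GCLC has 8618 bases of merged exons.

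The promoters of GCLM and GSTP1 are shown because an ARE core stands within the 250 bases before the start, and that of GCLC as the other ligase subunit. In GCLC the nearest match lay farther away, at bases 870 to 862 before the start. Any link between these matches and the fold changes was not tested. RefSeq promoter sequences (GRCh38.p14) were on hand for 6 of the 10 members, GCLC, GCLM, GPX1, GPX4, GSTP1 and MGST1. The ARE core was searched as TGACNNNGC and the AP-1 motif as TGACTCA, both on either strand, and the letters TGACTCAGC hold both. Each stretch below begins 250 bases before the start and reads 5′ to 3′ on the strand of the gene. It runs to the last base of the ARE core, given in capitals, or to the start where there is no match. They lie at chr6:53545102-53545351 (minus strand) for GCLC, chr1:93909456-93909680 (minus strand) for GCLM and chr11:67583562-67583754 (plus strand) for GSTP1.
GCLC: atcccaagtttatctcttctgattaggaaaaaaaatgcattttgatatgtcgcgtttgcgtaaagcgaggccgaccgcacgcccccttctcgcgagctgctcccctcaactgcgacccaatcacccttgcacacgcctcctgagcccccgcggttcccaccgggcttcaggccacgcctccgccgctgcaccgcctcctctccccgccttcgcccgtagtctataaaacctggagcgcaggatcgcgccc
GCLM: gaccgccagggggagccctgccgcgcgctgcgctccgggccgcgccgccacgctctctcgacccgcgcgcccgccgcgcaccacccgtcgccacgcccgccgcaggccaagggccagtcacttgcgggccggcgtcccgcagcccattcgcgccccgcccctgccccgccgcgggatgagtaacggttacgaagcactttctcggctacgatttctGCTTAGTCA
GSTP1: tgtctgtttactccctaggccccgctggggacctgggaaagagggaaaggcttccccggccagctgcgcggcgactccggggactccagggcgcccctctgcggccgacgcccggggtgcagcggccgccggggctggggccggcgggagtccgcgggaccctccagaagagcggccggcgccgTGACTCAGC

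In GCLM the match occupied bases 34 to 26 before the start and lay on the strand opposite to the gene. In GSTP1 it occupied bases 66 to 58, lay on the strand of the gene and also held an AP-1 motif. The start is that of RefSeq, and GENCODE exons of the same gene reach 70 bases into the window of GSTP1, over the match, and 26 bases into that of GCLM, up to the match. GCLC, GPX1, GPX4 and MGST1 had no match of either motif in the 250 bases before any of their listed starts. The window of GCLC lies inside the GENCODE gene, which begins at 53616970 on the minus strand, so it is not upstream of every annotated start. A GENCODE exon of GPX1 covers all 250 bases of its window, so that window is not upstream of every annotated start. Single exons of the same gene also cover up to 75 bases of a GPX4 window and 66 of an MGST1 window. Over all 35116 RefSeq promoters of this length, 10.9% held an ARE core and 4.20% an AP-1 motif, and over the 27305 genes, counted at any listed start, 13.2% and 5.19% did. In the 2000 bases before the start, all 6 members had at least 1 ARE core and 5 had an AP-1 motif outside or inside the nearest 250 bases (all but GCLM), where 51.8% and 25.8% of promoters and 55.1% and 28.8% of genes did. A match is a run of letters and not a measured site, and windows of this length say nothing about elements farther away. GCLC (24 CpG dinucleotides in 250 bases), GCLM (36) and GSTP1 (28) were all richer in CpG than the median promoter (11). So were GPX1 (20), GPX4 at each listed start (33, 33 and 37) and MGST1 at starts 1 and 2 (12 and 19). Only MGST1 at start 3 (3) lay below the median.

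**Figure D2:**
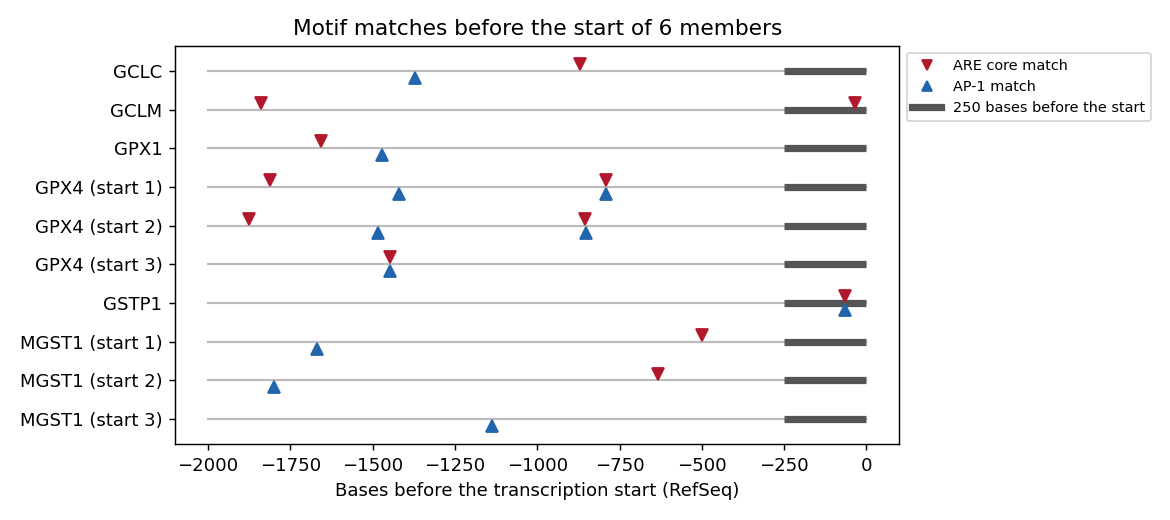
Positions of ARE core matches (downward triangles) and AP-1 matches (upward triangles) in the 2000 bases before each RefSeq start of 6 members, with distance from the start in bases on the x axis and 1 line per listed start on the y axis. Only GCLM and GSTP1 have an ARE core within the 250 bases drawn as a thick bar.

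GSS (ENSG00000100983.12, chromosome 20 from 34928432 to 34956027) encodes glutathione synthetase, which adds glycine in the second step. It did not follow the ligase. Exons of MYH7B on the opposite strand share 138 bases with exons of GSS and 0 with its canonical transcript, and MYH7B, a myosin heavy chain gene with 24 to 37 counts, was not called (log2 ratio 0.24, FDR = 0.57). The libraries read 86.6, 81.7 and 87.9 CPM in CBX8 KO and 93.3, 88.8 and 94.6 CPM upon re-expression. All 3 re-expression libraries lay above the KO libraries by a narrow gap, and the log2 fold change of 0.11 (SE 0.06) was not called. The call depended on scaling, since with library size alone the log2 fold change was 0.17 and GSS was called higher, as were 9.68% of all genes. The ratio of GCLC to GSS per kilobase of canonical transcript went from 1.36 ± 0.084 in CBX8 KO to 0.644 ± 0.026 upon re-expression.

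SLC7A11 (ENSG00000151012.13, chromosome 4 from 138164097 to 138242349, minus strand) encodes xCT, the transport subunit of the cystine-glutamate exchanger. It was the member with the most counts, at 624, 624 and 629 CPM in CBX8 KO and 456, 486 and 565 CPM upon re-expression. The KO libraries agreed within 0.459% (coefficient of variation), whereas the re-expression libraries spread by 11.2%, with replicate 3 closest to KO. At 4914 to 5250 counts, the KO spread is below counting error, so it is not read as a trait of SLC7A11. The log2 fold change was -0.32 (SE 0.06), and without re-expression replicate 3 it was -0.41. It stayed called whichever library was left out, and was nearest to 0, at -0.25, without re-expression replicate 1. Exons of SLC7A11-AS1 on the opposite strand cover 865 of the 9645 bases of its transcript. The strand setting of the counting is not given in the sources used here, so reads in that stretch cannot be told apart. SLC7A11-AS1 itself had between 444 and 583 counts and a log2 fold change of -0.34 (FDR = 0.0014).

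Glutathione reductase had the smallest spread of the members upon re-expression. GSR (ENSG00000104687.14, chromosome 8 from 30678066 to 30727846, minus strand), which regenerates glutathione from its disulfide, read 298, 301 and 308 CPM in CBX8 KO and 219.6, 219 and 219 CPM upon re-expression. The re-expression libraries differed from each other by a coefficient of variation of 0.208%. At 1841 to 1914 counts, that spread is below counting error, so it is not read as a trait of GSR. The level upon re-expression was 72.5% of that in KO, or -0.46 ± 0.05 (SE) as log2 fold change, with values between -0.48 and -0.41 under the other ways of processing. No exon of another gene overlaps GSR.

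The peroxidases among the members went separate ways. GPX1 (ENSG00000233276.9, chromosome 3 from 49357174 to 49358605), the abundant selenoenzyme that reduces hydrogen peroxide in cytosol and mitochondria, was the only member called higher. It read 132, 135 and 147 CPM in CBX8 KO and 183, 175 and 159.8 CPM upon re-expression, without overlap. The mean rose from 138 ± 7.64 to 173 ± 11.8 CPM, or 0.32 ± 0.06 (SE) as log2 fold change, and lay between 0.28 and 0.38 under the other ways of processing. The gene ENSG00000290318 on the same strand shares 572 of the 899 bases of its transcript, so the split of those reads is uncertain. The pseudogene GPX1P1 had at most 10 counts in a library.

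GPX4 (ENSG00000167468.20, chromosome 19 from 1103982 to 1106791), the selenoenzyme that reduces lipid hydroperoxides in membranes and holds back ferroptosis, read 155, 146 and 150.4 CPM in CBX8 KO and 145, 162 and 142 CPM upon re-expression. The groups overlapped. The log2 fold change was -0.01 with a 95% interval from -0.11 to 0.10, so a small change in either direction remains possible. Per kilobase of canonical transcript, the ratio of GPX1 to GPX4 went from 0.869 ± 0.059 in CBX8 KO to 1.09 ± 0.088 upon re-expression. Which of them is higher in KO rests on the length used, since per kilobase of merged exons GPX1 stood at 96.3 ± 5.34 and GPX4 at 81.8 ± 2.54 there. The ratio of GPX1 to GSR, the enzyme that supplies it with reduced glutathione, went from 1.54 ± 0.06 to 2.66 ± 0.18 per kilobase of canonical transcript.

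The transferases also differed from each other. MGST1 (ENSG00000008394.13, chromosome 12 from 16347142 to 16609259), a membrane-bound transferase of the endoplasmic reticulum and outer mitochondrial membrane with peroxidase activity, read 277, 264 and 249.6 CPM in CBX8 KO and 174, 176 and 190.1 CPM upon re-expression. The gap between the groups was wider than the range within either. MGST1 fell to 68.4% of its KO level, or -0.55 ± 0.05 (SE) as log2 fold change. Its merged exons sum to 7441 bases against 925 in the canonical transcript, so its level per length is uncertain. The choice of length does not enter its fold change, and whether isoform use differed between the groups was not tested.

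GSTP1 (ENSG00000084207.18, chromosome 11 from 67583742 to 67586656), the cytosolic pi-class transferase that conjugates glutathione to electrophiles and alkylating drugs, read 264, 300.4 and 331 CPM in CBX8 KO and 288, 284 and 265 CPM upon re-expression. The lowest KO library, replicate 1, lay level with the lowest re-expression library. The log2 fold change was -0.10 (95% interval from -0.22 to 0.02). The value depended on which KO library was kept. Without CBX8 KO replicate 1 the log2 fold change was -0.18 and GSTP1 was called lower, as were 5.39% of genes. Without CBX8 KO replicate 3, the highest KO library, it was -0.02 and GSTP1 was not called.

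GGCT (ENSG00000006625.18, chromosome 7 from 30496621 to 30504841), gamma-glutamylcyclotransferase, which turns gamma-glutamyl amino acids into 5-oxoproline, had the fewest counts, from 245 to 282. It read 30.9, 33.3 and 36.1 CPM in CBX8 KO and 31.5, 28.6 and 30.5 CPM upon re-expression. The groups overlapped, and the log2 fold change was -0.15 (95% interval from -0.32 to 0.03). Exons of the same-strand gene ENSG00000281039 share 441 of the 1158 bases of its transcript.

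The level of each member was set on a common scale as CPM per kilobase of canonical transcript. GSTP1 had the highest level in CBX8 KO, at 403 ± 45, followed by MGST1 at 285 ± 14.7, GPX4 at 177 ± 5.48 and GPX1 at 153 ± 8.50. GSR stood at 99.6 ± 1.58, and GCLM, SLC7A11 and GCLC lay close together at 67.7 ± 2.60, 64.9 ± 0.298 and 60.9 ± 2.45. GSS (44.7 ± 1.70) and GGCT (28.9 ± 2.24) were lowest. Between neighbours in this order, the libraries of GCLM and SLC7A11 overlapped and the others did not. Upon re-expression the order changed. GCLC at 31.1 ± 0.753 and GCLM at 40.9 ± 2.19 came to lie below GSS at 48.3 ± 1.62, whose libraries overlapped those of SLC7A11 at 52.1 ± 5.83, and MGST1, GPX1 and GPX4 overlapped at 195 ± 9.43, 192 ± 13.2 and 176 ± 12.2. Among the 12386 tested genes with a matched transcript length, the members lay between the 79.2 percentile (GGCT) and the 99.0 percentile (GSTP1) of this level. With the merged exons as the length, MGST1 dropped from second place to place 7 in CBX8 KO and GSTP1 stayed first. On that length GCLM stayed above GSS upon re-expression, at 36.8 ± 1.97 against 15 ± 0.501, and only GCLC, at 13.7 ± 0.331, came to lie below it.

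**Figure D3:**
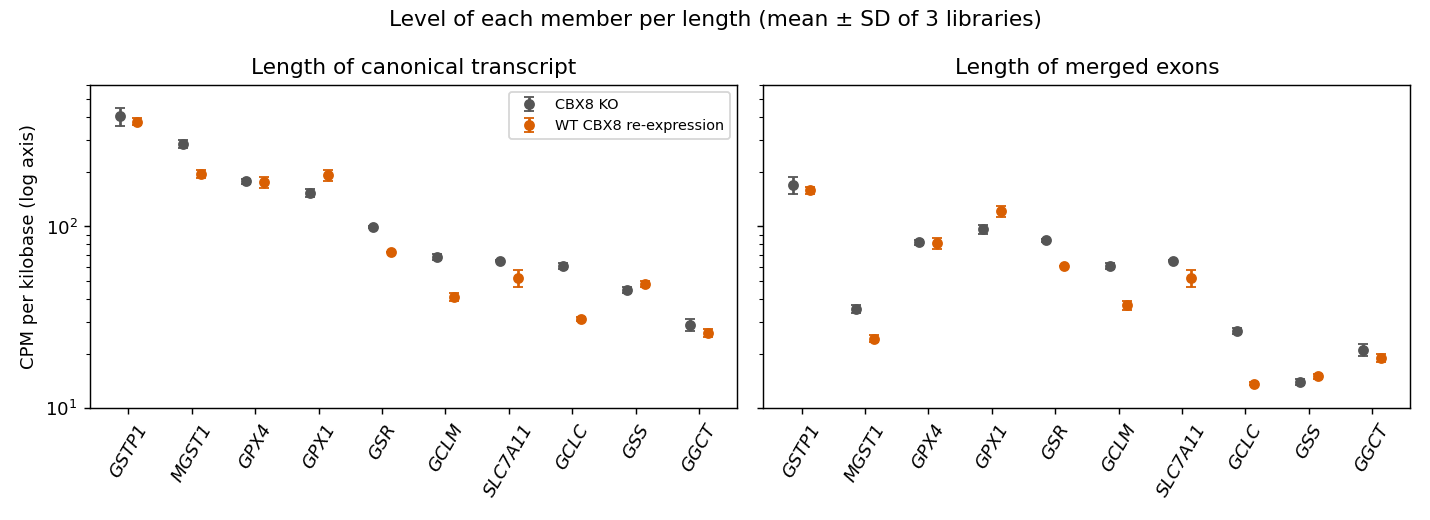
Level of each member as CPM per kilobase (y axis, log scale) in CBX8 KO and WT CBX8 re-expression libraries, with points as means and whiskers as SD of 3 libraries, ordered along the x axis by the level in CBX8 KO. The left panel uses the canonical transcript and the right panel the merged exons, where MGST1, GCLC and GSS sit lower relative to the other members.

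The other genes of the pathway were taken from lists ordered by role, with 68 genes tested. Like the members, these lists were chosen with earlier results of these data known. Their calls and FDRs are therefore only a description and lend the members no support. Of the 68 genes, 13 were called lower and 2 higher, with a median log2 fold change of -0.02, beside 6.63% and 6.23% of all genes tested. In cysteine and glutamate supply, 4 of 11 tested genes were called, all lower, and the median log2 fold change was -0.11. CTH, the cystathionine gamma-lyase that releases cysteine from cystathionine, fell from 10.3 ± 0.863 to 6.54 ± 0.722 CPM (log2 ratio -0.65 with SE 0.15, FDR = 0.0037). CBS, the enzyme before it, had at most 17 counts in a library and was not tested. SLC3A2, the heavy chain that carries SLC7A11 to the membrane, read 404, 436 and 433 CPM in CBX8 KO and 375, 382 and 350 CPM upon re-expression. That made a log2 ratio of -0.20 with SE 0.05 (FDR = 0.0072), and the call was lost with library size alone (FDR = 0.0573) and without CBX8 KO replicate 2 (FDR = 0.056). SLC1A1, a glutamate and cysteine transporter, fell by 0.45 on the log2 scale (FDR = 0.0063), which did not hold without re-expression replicate 2 (FDR = 0.0518). SLC1A5, a neutral amino acid and glutamine transporter, fell by 0.23 (FDR = 0.0017). MAT2A, MAT2B and AHCY of the methionine cycle were not called, at -0.13, -0.11 and -0.09.

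In the gamma-glutamyl cycle, 2 of 9 tested genes were called, both lower, whereas the median of the list was 0.13. GGT5, a cell-surface gamma-glutamyl hydrolase, fell from 65.1 ± 5.53 to 48.5 ± 3.26 CPM (log2 ratio -0.42, FDR = 0.00017), and LAP3, a leucine aminopeptidase, fell by 0.28 (FDR = 0.0045). CHAC1, a cytosolic enzyme that degrades glutathione, was not called, at 3.02 ± 0.553 and 3.31 ± 0.494 CPM. Among the other peroxidases, glutaredoxins and partner reductases, 2 of 11 were called, both lower, with a median of -0.05. TXNRD1, the cytosolic thioredoxin reductase, read 2237, 2320.4 and 2212 CPM in CBX8 KO and 1904, 1866 and 1826 CPM upon re-expression (log2 ratio -0.27, FDR = 0.0003). PRDX6, a peroxiredoxin that uses glutathione, fell by 0.19 (FDR = 0.0071), but not with library size alone (FDR = 0.061) or without re-expression replicate 2 (FDR = 0.0567). GPX3, GPX7 and GPX8 were not called, with log2 fold changes of 0.14, 0.50 and 0.11, and the 4 glutaredoxins lay between -0.11 and 0.01.

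Of 9 other glutathione transferases tested, 1 was called lower and 1 higher, with a median of 0.06. GSTK1, the mitochondrial and peroxisomal kappa-class enzyme, fell by 0.27 (FDR = 0.0064), which was lost without CBX8 KO replicate 2 (FDR = 0.0844). GSTM2, a mu-class enzyme, rose from 4.49 ± 0.958 to 6.94 ± 0.434 CPM (log2 ratio 0.62, FDR = 0.028). This call did not hold with DESeq2 (FDR = 0.133) or without KO replicate 1 (0.0632), KO replicate 3 (0.136), re-expression replicate 1 (0.0906) or re-expression replicate 2 (0.0686). GSTM2 has close paralogs, so its reads may be shared with other mu-class genes. GSTA1, GSTA2, GSTA3 and GSTA5 had 0 counts in every library, where a count of 0 allows up to 3 counts, or 0.346 to 0.377 CPM without TMM scaling. MGST2 and MGST3, relatives of MGST1, were not called, at -0.02 and 0.07.

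Of the 15 genes of conjugate transport and thiol detoxification, 1 was called in each direction, with a median of -0.04. ABCC3, an exporter of organic anions and conjugates, fell by 0.23 (FDR = 0.0057), which was lost without re-expression replicate 2 (FDR = 0.0732). HAGH, the glyoxalase that releases glutathione at the end of methylglyoxal detoxification, rose from 12.6 ± 0.698 to 17.2 ± 0.708 CPM (log2 ratio 0.45, FDR = 0.0072), a call that did not pass with DESeq2 (FDR = 0.0565). Its partner GLO1 was not called, at 234 ± 3.26 and 229 ± 2.38 CPM. SLC25A39 and SLC25A40, which bring glutathione into mitochondria, were not called either, at -0.04 and 0.04.

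Among 13 regulators, 3 were called, all lower, with a median of -0.04. NFE2L2 mRNA read 582, 556 and 525 CPM in CBX8 KO and 534, 521 and 527 CPM upon re-expression, at a log2 ratio of -0.07 (FDR = 0.38), and KEAP1 had 0.01 (FDR = 0.93). Neither value speaks to the protein, through which NRF2 is mainly controlled. SQSTM1, the p62 adaptor that binds KEAP1 and is itself a known NRF2 target, fell from 1085 ± 30 to 736 ± 0.136 CPM (log2 ratio -0.56, FDR = 3.1e-09). Its spread upon re-expression, at 6179 to 6440 counts, is below counting error and is not read as a trait of SQSTM1. ATF4, which activates SLC7A11 and CTH under amino acid shortage, fell by 0.27 (FDR = 0.00028). MAFG, a small MAF partner, fell by 0.21 (FDR = 0.017), and this was lost with library size alone (FDR = 0.0922), with DESeq2 (0.0569) and without KO replicate 2 (0.0515), KO replicate 3 (0.0996) or re-expression replicate 2 (0.099). BACH1, which competes with NRF2 for AREs, was not called, at -0.11.

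**Figure D4:**
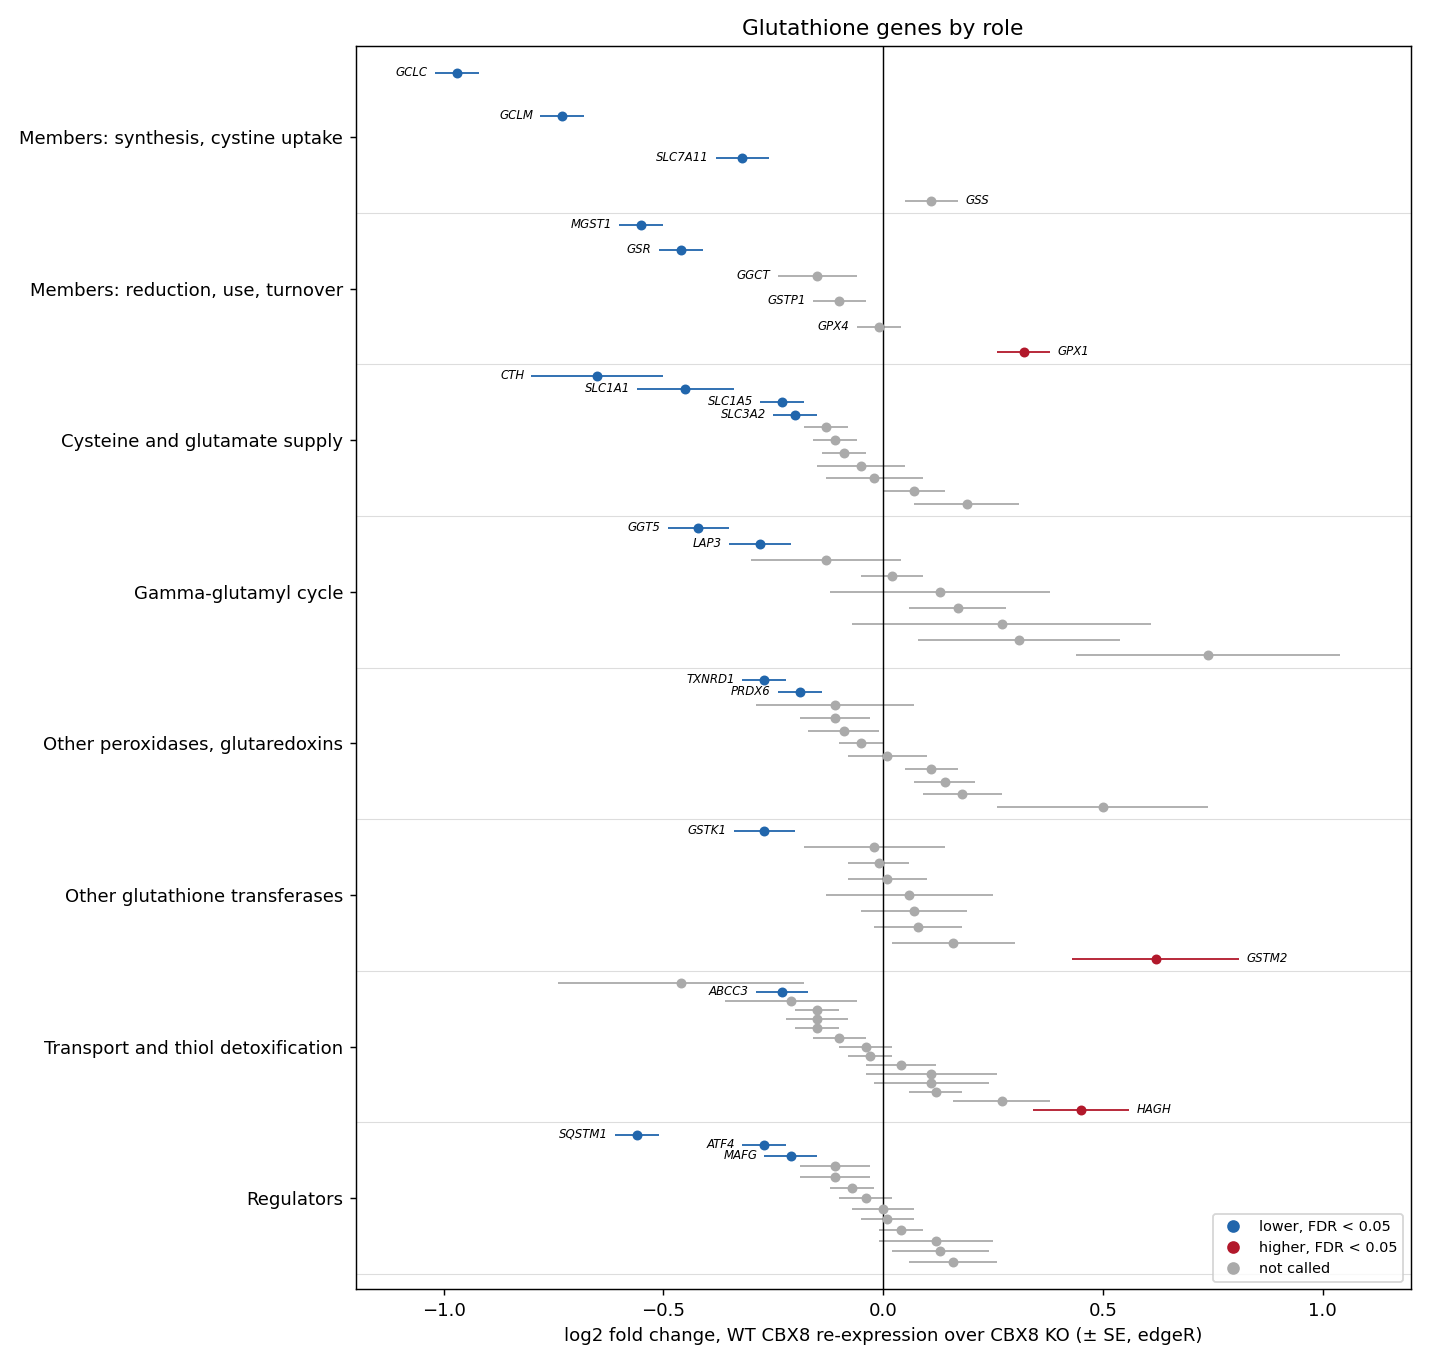
Log2 fold change of WT CBX8 re-expression over CBX8 KO (x axis, whiskers ± SE) for the 10 members and the 68 other tested genes of the pathway, grouped by role on the y axis. Colour gives the call at FDR < 0.05, and GCLC (-0.97), GCLM (-0.73) and CTH (-0.65) are the lowest called values.

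The genes most like the synthesis and uptake members were sought among the 8465 other genes whose log2 CPM averaged 4 or more. The measure was Pearson's r over the 6 libraries with the mean standardized log2 CPM of GCLC, GCLM, GSS and SLC7A11. The 5 highest were FANCI (0.995), RBPMS (0.994), LMO4 (0.992), CDC42EP4 (0.990) and ATXN7L3B (0.989). All 6 points share the split into 2 groups, and GSS, whose values lay the other way, weighs as much as GCLC in that mean. The mean itself was higher in every KO library (0.57, 0.29 and 0.55) than in any re-expression library (-0.56, -0.75 and -0.10). Genes ranked by it are therefore lower upon re-expression by selection, and their calls are no separate result. How high r would reach among 8465 genes without any link was not tested. Of the 5 genes, FANCI was not called at a log2 ratio of -0.08, while RBPMS (-0.31), LMO4 (-0.35), CDC42EP4 (-0.31) and ATXN7L3B (-0.18) were called lower. For ATXN7L3B the call was lost in 11 of the 15 alternatives. None of the 5 is in the pathway lists.

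**Figure D5:**
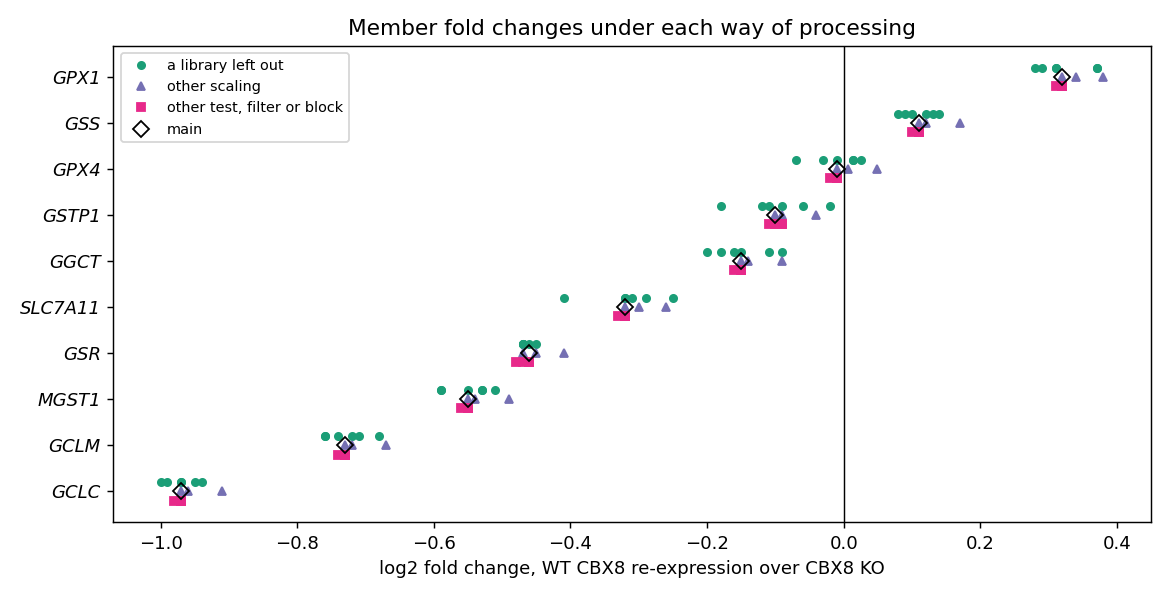
Log2 fold change of WT CBX8 re-expression over CBX8 KO (x axis) for each member (y axis) as reported (diamonds) and under other scalings, other tests, filters or the replicate block, and with a library left out. All members except GPX4, which lies on both sides of 0, keep their side under every setting drawn, the uncalled GSS, GSTP1 and GGCT included.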

How the data were processed

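RNA-seq counts of 6 T98G libraries, 3 CBX8 KO and 3 WT CBX8 re-expression, were analysed. Per gene symbol, the authors deposited raw, unnormalized counts, made after trimming with Trimmomatic and alignment of paired-end reads of poly(A) RNA to hg38 with HiSat2. The counting program, annotation, strand setting and versions are not given in the sources used here. The unit was read from the values, which are whole numbers. Counts carry no molecular identifiers, so depth covers counting error only. The members and the gene lists were chosen with earlier results of these data known.

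In R 4.3.3, genes were kept with filterByExpr of edgeR 4.0.16, normalized by TMM and tested by glmQLFit and glmQLFTest with condition as the only term, as the study used EdgeR at FDR < 0.05. The SE of a log2 fold change was taken as its size over the root of F. The 95% intervals use that SE with the normal quantile, so they are narrower than the F test behind the calls would give. The test was checked on simulated counts. The alternatives were 3 scalings, DESeq2 1.42.0, limma 3.58.1 (voom), 2 filters, the replicate number as a block, FDR < 0.01 and each library left out. Named genes were the members, CBX8, every called gene of a pathway list (at most 8 a list), the 5 genes most like the synthesis and uptake members, and genes whose exons overlap a member. Others were added after their values were seen. Coordinates, transcript lengths and overlaps come from GENCODE release 44. The canonical transcript of each member matched 1 place in hg38 at 95% of its bases or more by minimap2 2.31. Replicate numbers did not pair the libraries. Same-condition libraries differed by more than sampling noise (chi-square over its degrees of freedom, 2.06 to 3.09).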

Additional observations from a re-analysis of the deposited data

How the results depend on the processing

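The 5 members called lower (GCLC, GCLM, SLC7A11, GSR, MGST1) and GPX1 kept direction and call under all 15 alternatives. These alternatives reuse the libraries that were in view when the members were proposed. They show how far the calls depend on processing and lend them no support. With library size alone, 592 genes were lower and 1400 higher over all genes tested, against 959 and 901, and 2 members were higher, as GSS joined GPX1. DESeq2 called 676 genes lower and 501 higher. Of the pathway genes other than members, it called 13 lower, as edgeR did, and 0 higher, where 2 were higher at an unadjusted p under 0.05 and edgeR and limma each called 2 higher. At FDR < 0.01, 569 genes were lower and 489 higher, with 1 pathway gene higher. With 1 library left out, genes called lower ranged from 635 to 851 and higher from 593 to 792, both lowest without WT CBX8 re-expression replicate 2. Members lower ranged from 5 to 6. Pathway genes lower ranged from 9 (without WT CBX8 re-expression replicate 2) to 15 (without CBX8 KO replicate 1), and higher from 1 to 2. With library size alone, 10 pathway genes were lower. GPX4, near 0, turned positive with upper quartile scaling (0.0059), library size alone (0.0488), and without CBX8 KO replicate 1 (0.0142), re-expression replicate 1 (0.0132) or re-expression replicate 3 (0.0252), with a range from -0.07 to 0.0252 over the libraries left out. The 33 genes followed were the members, CBX8, the 15 called pathway genes, the 5 most alike and the overlapping MYH7B and SLC7A11-AS1. Of their 495 alternative results, 457 kept direction and call, 31 lost the call, 2 gained it and 5 reversed. The 33 at FDR < 0.01 are the main fit at a stricter threshold, so their fold changes could not differ. The causes were not tested. With merged exons as the length, the GCLM to GCLC ratio was 2.28 and 2.69 in place of 1.11 and 1.31. In 2000 bases, 6 members held an ARE core and 5 an AP-1 motif, in place of 2 and 1 in 250 bases, which a longer window gives by construction.

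Under a replicate block, 766 genes were lower and 739 higher, and the members called remained 5 lower and 1 higher. Libraries of the same number did not deviate together (r = -0.14, -0.17 and -0.076 over 10393 genes), and no pairing was assumed. No other call of a member changed under the block.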
